A study of Mus musculus with 8 samples.

Results

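Type 1 conventional dendritic cells (cDC1) were taken from single-cell libraries of brain immune cells as the barcodes chosen by their own counts: at least 3 of the transcripts of Clec9a, Xcr1, Wdfy4, Naaa and Ifi205 had to be present, among them Clec9a or Xcr1. Barcodes with a transcript of Cd3e (T cells), C1qa (macrophages) or Siglech (plasmacytoid dendritic cells) were left out. The gate held 1438 of the 46314 barcodes that bore a single hashtag antibody, or 3.10%. The 8 libraries, 1 per condition, came from C57BL/6J (WT) mice and from APPNL-G-F (APP) mice, whose own App gene is replaced by a version with human amyloid-beta sequence and the Swedish, Iberian and Arctic mutations in every cell that uses the gene. Mice of both genotypes were 16 weeks old by the labels, and the study's methods give a somewhat younger age. Control mice of both genotypes drank water. The food allergy groups were made allergic to ovalbumin. Colitis was caused by 2% dextran sulfate sodium (DSS) given to drink. Its acute form took 1 week of DSS, and its chronic form 3 cycles, each with 5 days on DSS and 5 days off. CD45.2+ cells were sorted from perfused brain parenchyma after each cell sample had been stained with a hashtag antibody. The sources used here do not tie hashtags to mice, so p-values measured the spread between separately stained cell samples, and library and condition cannot be told apart.

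cDC1 are the dendritic cells that take up dead cells and present their proteins on MHC class I to CD8 T cells, a route called cross-presentation. They depend on the transcription factors IRF8 and BATF3 and on the growth factor FLT3L. In the brain, conventional dendritic cells lie mainly in the meninges and the choroid plexus, with few in the parenchyma, and they are known for bringing antigen from the central nervous system to T cells.

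The 5 genes of the gate chose the cells, so their levels are a description only. Clec9a, at chr6:129408862-129424763 on the plus strand of mm10, encodes the receptor for actin filaments laid bare on dead cells. Xcr1, at chr9:123852315-123862029 on the minus strand, encodes the receptor for the chemokine XCL1. Of the members, 846 had all 5 transcripts, 435 had 4 and 157 had 3, and 915 carried both Clec9a and Xcr1, 445 Clec9a alone and 78 Xcr1 alone. Levels below are in CPM, counts of UMIs (unique molecular identifiers, 1 for each captured transcript) of a gene scaled to an equal total of gene UMIs in every hashtag group. Members had a median of 9918.5 UMIs and 2575 genes, against a median of 3267 UMIs over all barcodes with 1 hashtag.

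The edge of the gate was soft. Members with 3 markers had 685 CPM of Irf8, 77.3 CPM of Batf3 and 14449 CPM of Cd74, and the 123 barcodes just outside, with 2 markers, had 515, 18.4 and 6150 CPM. Those outside barcodes also had 7571 CPM of the neutrophil transcript S100a8. Members with all 5 markers stood at 1522 CPM of Irf8 and 32581 CPM of Cd74. A transcript of Cd3e, C1qa or Siglech removed 318 barcodes that otherwise met the gate, and 77 more met it without a single hashtag. Some members also met the gates of monocytes (55), B cells (45), neutrophils (33), type 2 dendritic cells (28) or migratory dendritic cells (8), and no doublet caller was run beyond the hashtags.

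Genes outside the gate that mark cDC1 were present at high level. Over the 16 hashtag groups with at least 10 members, Irf8 stood at 1367 ± 147 CPM (SD, n = 16) in cDC1, against 91.9 CPM in Cd209a-positive type 2 dendritic cells (cDC2) of the same groups, and 2414 CPM in plasmacytoid dendritic cells, which also use it. Batf3 stood at 197 ± 24.6 CPM against 60.4 CPM, and Id2, which encodes an inhibitor of E proteins needed for the lineage, at 487 ± 52.1 CPM against 111 CPM. Each of these genes was higher in cDC1 than in cDC2 in 16 of 16 groups. The integrin gene Itgae (CD103) was at 147 ± 28.7 CPM against 0.902 CPM, the adhesion molecule gene Cadm1 at 93.2 ± 23.2 CPM against 3.07 CPM, and Tlr3, the endosomal sensor of double-stranded RNA, at 119 ± 29.6 CPM against 1.94 CPM. Cd8a, which marks the cDC1 of lymphoid organs, was found in 7.23% of members. The dendritic cell genes Flt3 (166 ± 27.6 CPM) and Zbtb46 (88.4 ± 15.5 CPM) were present as well. These values describe the gate and were not tested, because the same cells and counts chose the members.

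**Figure D1:**
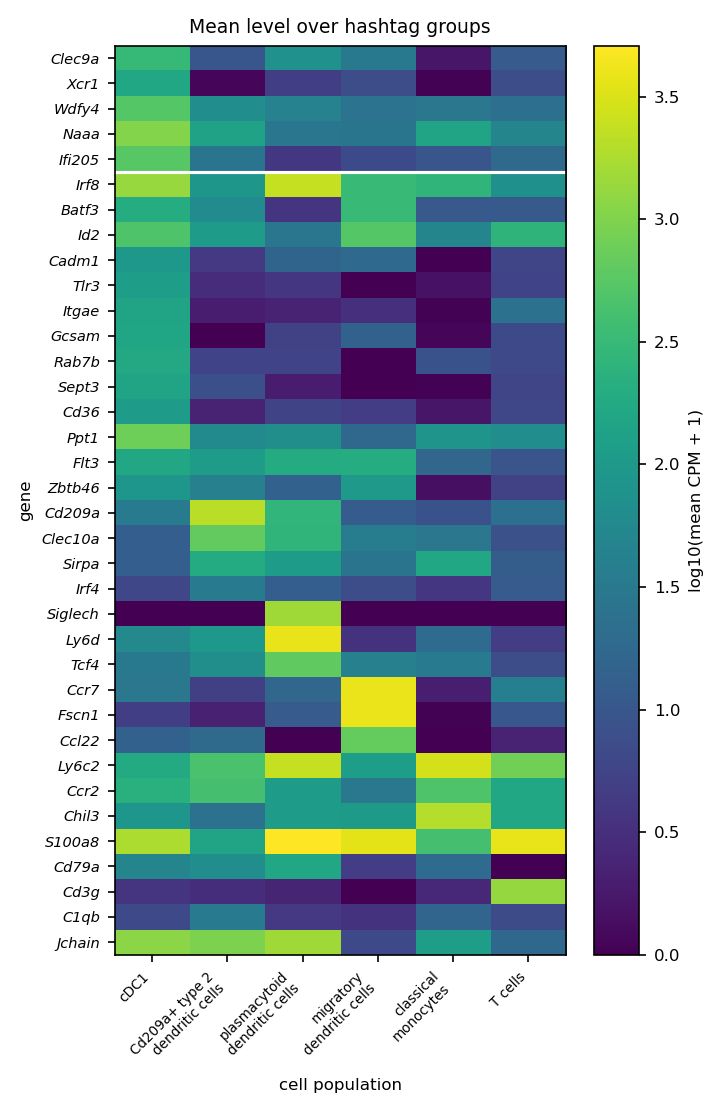
Mean level over hashtag groups, as log10(CPM + 1), of marker genes (rows) in cDC1 and 5 other populations (columns), with the 5 gate genes above the white line. Irf8 to Ppt1, the identity genes drawn, are at 93.2 CPM or more in cDC1, and Cd209a stands at 31.6 CPM there against 2130 CPM in cDC2.

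Markers of other cells ranged from near 0 to high. The cDC2 list summed to 200 ± 76.5 CPM, with Cd209a at 31.6 CPM against 2130 CPM in cDC2, and Ccr7, the receptor that guides migratory dendritic cells to lymph nodes, was found in 2.78% of members. The 6 T cell markers summed to 9.98 CPM, and of the microglial markers Gpr34 was at 24.1 CPM, P2ry12 at 2.40 CPM and Sall1 at 0. The 6 monocyte markers summed to 934 ± 380 CPM, from 461 to 1691 CPM, with Plac8 the most abundant (357 CPM). Plac8 was lower in acute and chronic colitis (-1.53 and -1.42 on the log2 scale, edgeR adjusted p = 0.0221 and 0.0471). Of all genes 1.97% and 1.19% were called lower. The 6 markers as a list had medians of -0.76 and 1.28, with 3 and 4 estimates above 0. Neither call of Plac8 held without the WT control library, the reason for which is given below. In APPNL-G-F groups Plac8 was at 410 and 391 CPM in controls, 197 and 147 CPM in acute colitis and 234 and 69.4 CPM in chronic colitis. The 5 erythroid markers were at 3777 CPM in the WT acute colitis group of hashtag 5, at 1076 and 577 CPM in the APP control group of hashtag 7 and the APP acute colitis group of hashtag 4, and below 2 CPM in the other 13. The mast cell and basophil markers had a median of 3.73 CPM and a highest value of 789 CPM, in the APP food allergy group of hashtag 4. Neutrophil transcripts had a summed level of 2.61 to 18121 CPM and a median of 1499 CPM over groups. S100a8 itself was below 3 CPM in both WT control and both WT acute colitis groups and at 8497 CPM in the APP acute colitis group of hashtag 5. It was found in 17.8% of members, and its mean of 1763 CPM in cDC1 compares with 3805 CPM in T cells and 144 CPM in cDC2. Plasma cell transcripts were at 166 to 9750 CPM, with Jchain the most abundant and found in 6.19% of members. The part of free RNA and doublets in these levels was not tested.

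Ranked by mean level over that in cDC2, plasmacytoid and migratory dendritic cells and monocytes, 18 of the 20 leading genes outside the gate were immunoglobulin variable genes. A small number of members carried them. The 26 members with at least 50 such UMIs held 99.0% of the 138315 immunoglobulin variable UMIs. Ranked instead by the median over groups, a choice made after the values were seen, the leading genes were Gcsam, Itgae, Tlr3, Cd36, Jchain, Cyp8b1, Dbn1, Rab7b, Sept3 and Pianp. Of the Jchain UMIs 99.5% lay in the same 26 members, so its rank rests on them.

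Antigen presentation genes were next. The 12 MHC class II genes summed to 61334 ± 5609 CPM, from 51622 CPM in the WT food allergy group of hashtag 4 to 74213 CPM in the WT control group of hashtag 6. Cd74, the invariant chain, stood at 30322 ± 2366 CPM, below cDC2 in 14 of 16 groups, and the class II regulator Ciita at 146 ± 26.2 CPM. Genes for MHC class I loading summed to 6633 ± 586 CPM, against 5986 CPM in cDC2 and 5207 CPM in monocytes. Their sum was higher in plasmacytoid (6981 CPM) and migratory (14230 CPM) dendritic cells and in T cells (9465 CPM). Psmb9, an immunoproteasome subunit, was at 587 ± 76.0 CPM against 199 CPM in cDC2, and Tap1, the peptide transporter, at 219 ± 31.0 CPM against 120 CPM, both higher in 16 of 16 groups.

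Receptors set cDC1 apart from cDC2 as well. Tlr11 and Tlr12, sensors of profilin from protozoa, were at 35.3 ± 8.22 and 15.4 ± 8.96 CPM against 3.08 and 0.954 CPM in cDC2. Unc93b1, the chaperone of the endosomal Toll-like receptors, was at 545 ± 57.6 CPM. Cxcr3, the receptor for CXCL9 and CXCL10, was at 114 ± 18.1 CPM against 5.02 CPM. Havcr2 (TIM-3) was at 112 ± 14.6 CPM against 27.1 CPM, while Il1b, at 124 ± 77.3 CPM, was below the 1147 CPM of cDC2 in every group.

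Some products varied strongly between groups. Cxcl9, a chemokine induced by interferon gamma, ranged from 0 CPM in the WT control group of hashtag 7 to 294 CPM in the APP food allergy group of hashtag 4, with 216 CPM in the other WT control group. It was detected in 8.28% of members. The 14 interferon-stimulated genes in the files likewise summed to 2514 and 433 CPM in the WT control groups, the highest and the lowest of all 16, so the widest gap lay within 1 library.

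A split of the cell samples ran through every library and had to be read before the conditions. The sources used here do not say what sets its sides apart, such as dissociation, tissue fraction or day, and its cause was not tested. In T cells, the summed level of 10 immediate-early genes such as Fos, which live cells switch on quickly when stimulated, was 3108 to 6804 CPM in 16 hashtag groups and 727 to 1768 CPM in the other 14. The 16 high groups held 1378 of the 1438 cDC1 (95.8%). In them cDC1 were 2.59 to 7.09% of barcodes (median 5.14%), against 0 to 1.85% in the low groups. The low groups of at least 200 barcodes had 0.225 to 0.978%. The high groups bore hashtags 6 and 7 in control and chronic colitis libraries and hashtags 4 and 5 in acute colitis and food allergy libraries. Shares were therefore read within each set, and gene levels were compared in the high groups alone, since no low group had 10 members.

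**Figure D2:**
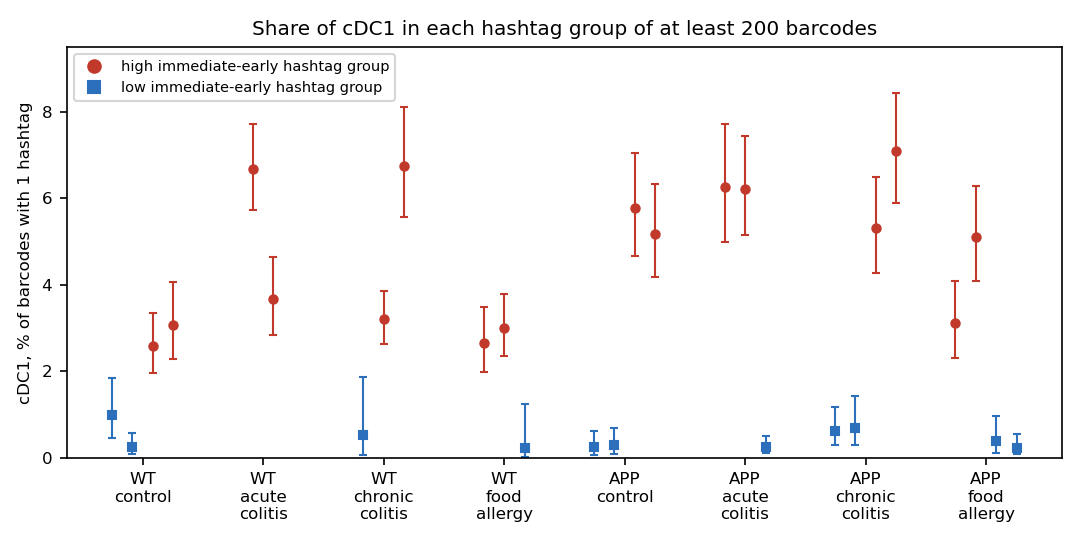
Share of cDC1 among barcodes with 1 hashtag (percent, vertical axis) in each hashtag group of at least 200 barcodes, by library, with exact 95% binomial intervals (counting error only). Red circles are groups with high immediate-early levels in T cells, from 2.59 to 7.09%, and blue squares are low groups, from 0.225 to 0.978%.

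Over the whole libraries the share was 1.76% (exact binomial 95% interval 1.46 to 2.11%) in WT control, 5.25% with acute colitis, 4.04% with chronic colitis and 2.60% with food allergy. In APPNL-G-F mice it was 2.82% without treatment, 3.17% with acute colitis, 3.83% with chronic colitis and 2.20% with food allergy. These intervals cover counting error only. Because the libraries mixed high and low groups in unequal parts, whole-library shares follow that mixture as well.

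Among high groups of WT mice, the controls had 2.59 and 3.07%, acute colitis 6.68 and 3.66%, chronic colitis 3.20 and 6.75%, and food allergy 2.65 and 3.01%. Both colitis pairs lay above both controls and the food allergy pair overlapped them. With 2 groups against 2 the smallest possible p of the exact permutation test was 0.333, so no pair could pass. Among high groups of APPNL-G-F mice, the controls had 5.77 and 5.18%, acute colitis 6.25 and 6.22%, chronic colitis 5.30 and 7.09%, and food allergy 3.11 and 5.10%. The acute colitis pair lay above, the food allergy pair below, and the chronic colitis pair overlapped its controls.

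Over all hashtag groups of at least 200 barcodes, none of 7 comparisons of the share passed. These tests pooled high and low groups, so their spread holds that split and they cannot show that shares were equal. WT acute colitis had 5.17 ± 2.13% (n = 2) and WT control 1.72 ± 1.33% (n = 4), with a two-sided exact permutation p = 0.133, which is the smallest possible there (Benjamini-Hochberg adjusted p = 0.8). Both of these WT acute colitis groups were high groups, while the controls were 2 high and 2 low. The difference of 3.45 percentage points was 2.34 within high groups and 1.33 with groups under 200 barcodes included. With 1 hashtag group left out it ranged from 1.94 to 4.96. The raw p of the other 6 ranged from 0.343 to 0.971, where 0.0286 or 0.0571 was possible. For chronic colitis in APPNL-G-F mice the study names fewer mice than there were hashtag groups, so groups may share an animal and the p-values may be too small.

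Between genotypes, a comparison added after the data were seen gave 5.50 ± 1.18% in APPNL-G-F (n = 8) against 3.95 ± 1.74% in WT (n = 8) over the high groups. The mean was higher in APPNL-G-F in 4 of 4 treatments (two-sided exact permutation within treatments, p = 0.0278). Without the control libraries, where the gap was widest, it was 5.51 ± 1.38% against 4.33 ± 1.88% (n = 6 each) and did not pass (two-sided exact permutation p = 0.167). The smallest gap lay in acute colitis, where WT hashtag 4 (6.68%) exceeded both APPNL-G-F groups. In the low groups the mean was 0.264% in APPNL-G-F against 0.610% in WT in controls (n = 2 each), 0.660% (n = 2) against 0.518% (n = 1) in chronic colitis and 0.303% (n = 2) against 0.225% (n = 1) in food allergy, so the order was not the same in all. Other populations differed between the sets too, with cDC2 at a median of 1.58% against 0.398% in low groups and T cells at 16.0% against 38.1%. Fibroblast transcripts over all barcodes were at 5.72 to 253 CPM in high groups and 0 to 35.5 CPM in low groups.

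Before gene levels were compared, libraries were found to stand apart, WT control most and WT food allergy less. In both WT control groups, some ribosomal protein transcripts were low. Rps29 stood at 836 and 845 CPM there, at 1776 and 1909 CPM in WT food allergy, and at 3252 to 5211 CPM in the other 12 groups. Both WT control groups were thus below every other group, and both WT food allergy groups below the remaining 12. Of 87 ribosomal protein genes tested in cDC1, 16 had a treatment effect that differed between genotypes, against 78 of all 7983 genes (0.977%). All 16 were lowest in WT control, as were 65 of the 78. Summed over all ribosomal protein genes, the cDC1 of WT control were at 203295 and 216088 CPM and those of WT food allergy at 188488 and 209687 CPM.

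**Figure D3:**
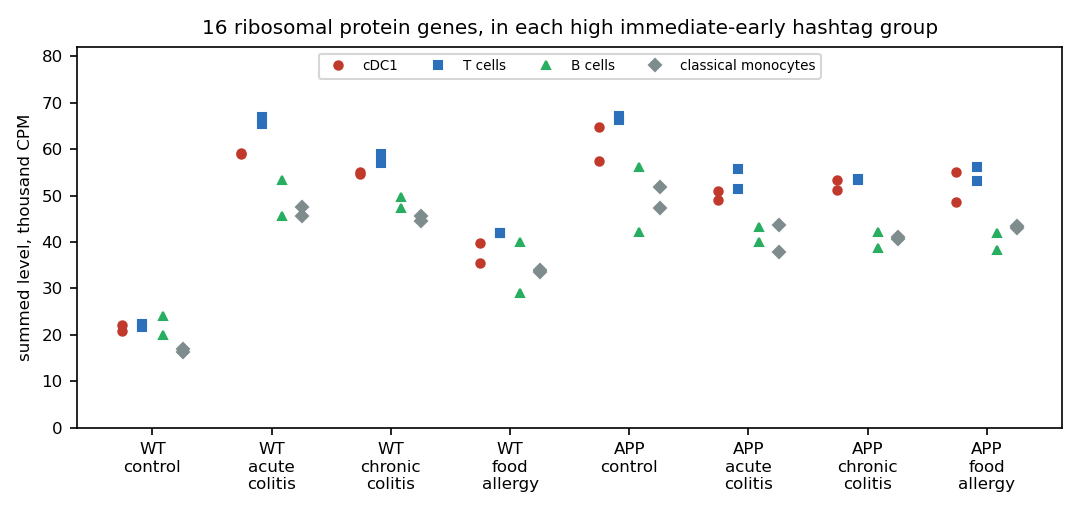
Summed level of the 16 ribosomal protein genes with a treatment by genotype interaction (CPM, vertical axis) per hashtag group in cDC1, T cells, B cells and classical monocytes. The WT control groups lie between 16238 and 24046 CPM in all 4 populations, and in cDC1 the 12 groups outside WT control and WT food allergy lie between 48561 and 64701 CPM.

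The same was seen outside cDC1. The 16 genes summed to 20768 and 22108 CPM in the cDC1 of WT control, to 21727 and 22314 CPM in its T cells and to 16238 and 16931 CPM in its monocytes. In WT food allergy they summed to 35473 and 39765 CPM in cDC1, 42027 and 42031 CPM in T cells and 33501 and 33943 CPM in monocytes, below all 12 remaining groups in each. In its B cells, at 28947 and 40016 CPM, they overlapped them in 1 of 2 groups. Gene results below are given with the WT control library and, where a call changes, without it.

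Treatments were compared with controls over 16 groups (2 per library) with genotype as a term, by edgeR's quasi-likelihood test with Benjamini-Hochberg adjustment over 7983 genes, at an adjusted p below 0.05. The 3 treatment comparisons share their 4 control groups. In acute colitis 213 genes differed (2.67% of those tested), 56 higher (0.701%) and 157 lower (1.97%). In chronic colitis 135 differed (1.69%), 40 higher (0.501%) and 95 lower (1.19%), and in food allergy 40 (0.501%), 4 higher (0.0501%) and 36 lower (0.451%). Without the WT control library the counts were 72, 13 and 1, of which 62, 13 and 1 were among the genes called with it. Without the WT food allergy library as well they were 55, 13 and 0 by edgeR (683 genes at an unadjusted p below 0.05 in food allergy), with 46 and 13 shared. With the 2 groups of each library summed they were 34, 27 and 7, of which 27, 16 and 3 were shared.

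**Figure D4:**
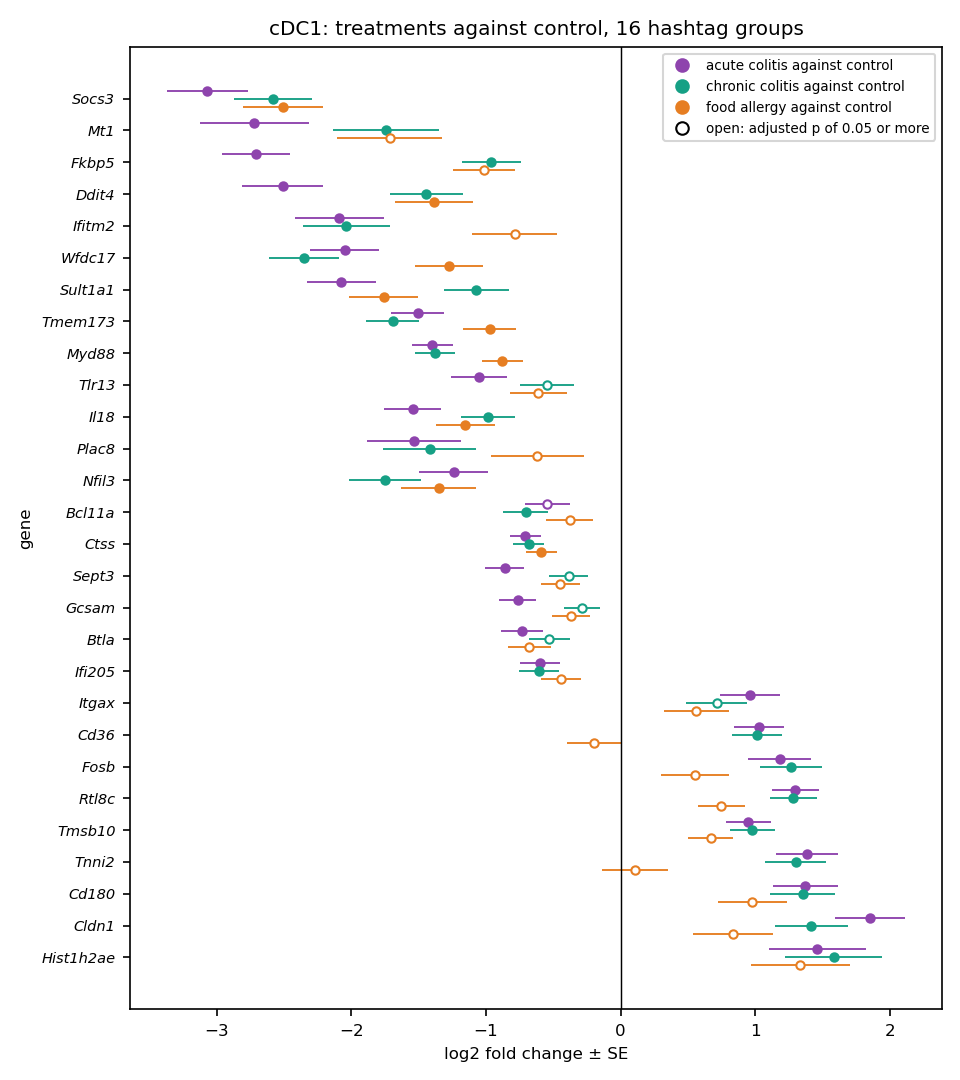
Log2 fold change against control with its standard error (horizontal axis) of 28 named genes in cDC1 for each treatment, from the edgeR fit over 16 hashtag groups, with open points where the adjusted p was 0.05 or more. Socs3 lies lowest in all 3 treatments, at -3.07, -2.58 and -2.51.

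The fall of Socs3, the feedback inhibitor of cytokine receptors that signal through STAT3, was the largest among genes of at least 50 CPM in each of the 3 comparisons. Socs3 lies at chr11:117966079-117970047 on the minus strand. The controls had 313 and 411 CPM in WT and 186 and 412 CPM in APPNL-G-F. Acute colitis groups had 56.3, 43.0, 20.8 and 28.9 CPM, chronic colitis groups 48.8, 67.8, 38.2 and 53.5 CPM, and food allergy groups 48.4, 42.7, 86.1 and 50.7 CPM. Every control group lay above all 12 treated groups. The share of all genes with controls above all 12 was not counted, here or for the genes below. The log2 fold change was -3.07 ± 0.30 (SE) in acute colitis (edgeR adjusted p = 2.08e-05), -2.58 ± 0.29 in chronic colitis (edgeR adjusted p = 0.000102) and -2.51 ± 0.30 in food allergy (edgeR adjusted p = 0.00153). Without the WT control library the changes were -3.13, -2.65 and -2.58 and each kept its call (edgeR adjusted p = 0.00183, 0.00508 and 0.0311). Without the WT food allergy library as well, that of food allergy was -2.22 and lost its call (edgeR adjusted p = 0.389).

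**Figure D5:**
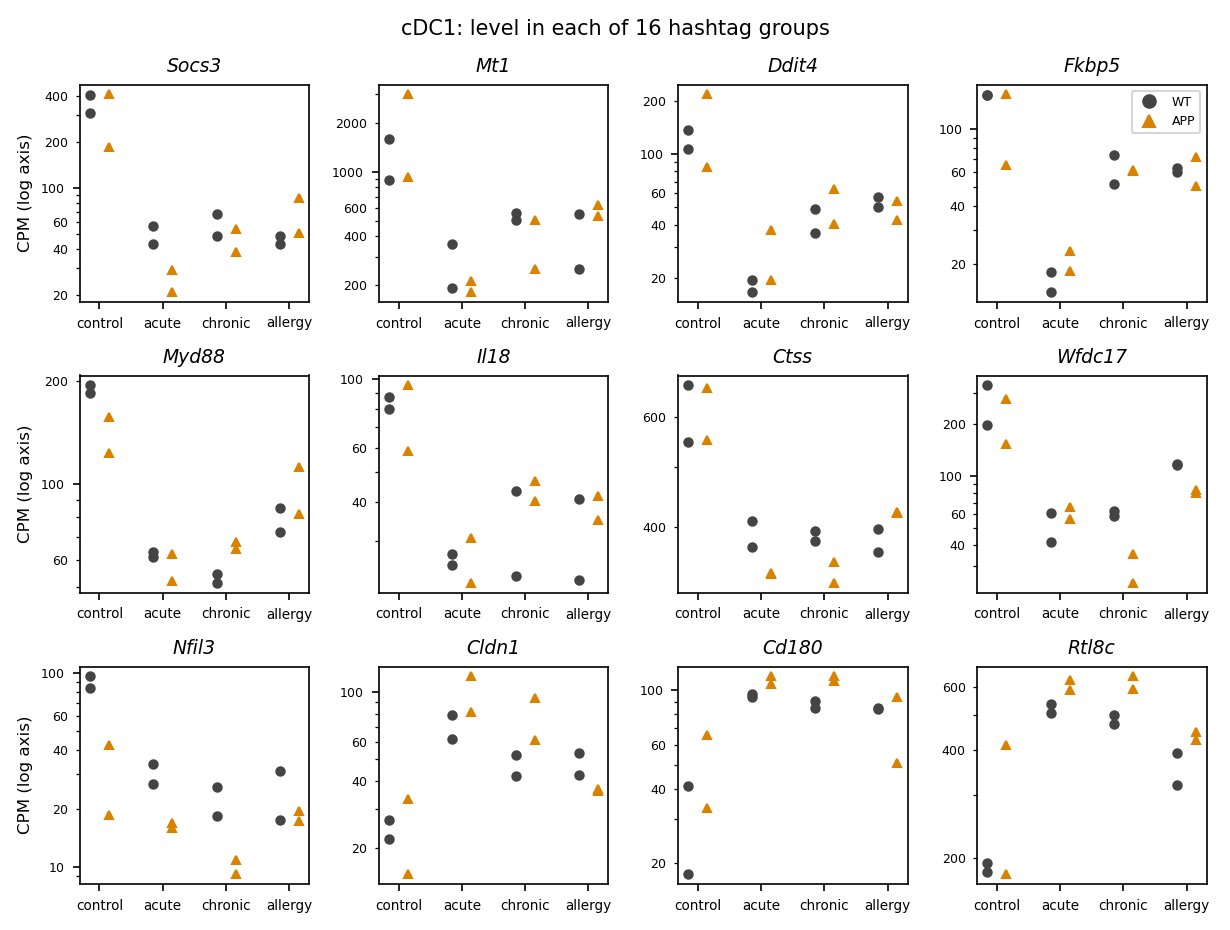
Level in cDC1 of 12 named genes (CPM, vertical log axis) in each of the 16 hashtag groups by treatment, with circles for WT and triangles for APPNL-G-F. For Socs3, Mt1, Ddit4, Myd88, Il18, Ctss and Wfdc17 every control group lies above all 12 treated groups, while the controls of Fkbp5 and Nfil3 overlap treated groups. The 12 genes were picked from called genes, and the share of all genes with such a gap was not counted.

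Mt1, Ddit4 and Fkbp5 were among the other large falls by rank, and no list that joins them was tested. Of 8 heat-shock chaperones none was called by edgeR or DESeq2 in any treatment, with 7, 3 and 4 estimates above 0. Of all genes edgeR called 2.67%, 1.69% and 0.501%. At an unadjusted edgeR p below 0.05 there were 2, 3 and 3 of the 8, against 1142, 1181 and 1021 of all 7983 genes. Mt1, which binds zinc and responds to metals and glucocorticoids, was at 892, 1588, 922 and 2979 CPM in the 4 controls, at 182 to 357 CPM with acute colitis, at 251 to 553 CPM with chronic colitis and at 250 to 621 CPM with food allergy. Controls lay above all treated groups and also varied most among themselves. Its log2 change was -2.72 ± 0.41 in acute colitis (edgeR adjusted p = 0.000964) and -1.74 ± 0.39 in chronic colitis (edgeR adjusted p = 0.0319). In food allergy it was -1.72 ± 0.39 and did not pass (edgeR adjusted p = 0.0614). The chronic call was lost without the WT control library (-2.19, edgeR adjusted p = 0.0823), but not without both WT libraries that stood apart (-2.37, edgeR adjusted p = 0.0389).

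Ddit4, an inhibitor of mTORC1 that is induced by stress and glucocorticoids, was at 107, 136, 84.2 and 217 CPM in controls, 16.6 to 37.3 CPM with acute colitis, 36.0 to 63.6 CPM with chronic colitis and 42.2 to 57.0 CPM with food allergy. Again no treated group reached a control. The log2 changes were -2.51 ± 0.30, -1.44 ± 0.27 and -1.38 ± 0.29 (edgeR adjusted p = 0.000163, 0.00993 and 0.0397), of which the acute one alone was called without the WT control library, where the estimates were of like size (-2.58, -1.51 and -1.46). Fkbp5, the glucocorticoid-induced co-chaperone of the glucocorticoid receptor, was at 150, 150, 65.6 and 152 CPM in controls and at 14.3 to 23.3 CPM in acute colitis, with no overlap. It fell by 2.71 on the log2 scale in acute colitis (SE 0.25, edgeR adjusted p = 2.08e-05). In chronic colitis, at 52.1 to 73.7 CPM, 1 control overlapped, and the call (-0.96 ± 0.22, edgeR adjusted p = 0.0323) was lost without the WT control library (-0.75, edgeR adjusted p = 0.427).

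Sequences upstream of 3 genes that fell are shown because motifs for factors upstream of such genes can be read in them. They run 5′ to 3′ along the gene and stop before the first annotated exon base within the window of 250 bases before the start, and come from RefSeq on GRCm38.p6, where all 11 genes looked for were matched. Capitals mark the STAT match in Socs3 and Myd88 and the metal response match in Mt1. TTCNNNGAA, the STAT motif, reads the same on both strands and was found in 7.01% of all 32817 windows of 250 bases. TGCNCNC, a loose pattern for the core of the metal response element that allows any base at each N, was searched on both strands. It was found in 44.4%, and not every match need be the core. Socs3 at chr11:117969452-117969616 (minus strand) and Myd88 at chr9:119340042-119340268 (minus strand) each held 1 STAT match, and Mt1 at chr8:94178839-94179081 (plus strand) held 1 metal response match. RefSeq and GENCODE place the starts differently, and the stretches of Socs3 and Myd88 lie within the GENCODE gene spans, in an intron of a longer transcript, while that of Mt1 lies before its gene. Matches to this loose metal response pattern were also found in Socs3 and Myd88, where they are left in lower case, and in Ddit4 and Fkbp5. In all, 5 of the 11 genes held the pattern.
Socs3: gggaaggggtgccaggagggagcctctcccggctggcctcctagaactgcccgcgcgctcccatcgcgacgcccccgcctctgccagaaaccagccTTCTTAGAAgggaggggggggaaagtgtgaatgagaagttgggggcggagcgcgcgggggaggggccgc
Mt1: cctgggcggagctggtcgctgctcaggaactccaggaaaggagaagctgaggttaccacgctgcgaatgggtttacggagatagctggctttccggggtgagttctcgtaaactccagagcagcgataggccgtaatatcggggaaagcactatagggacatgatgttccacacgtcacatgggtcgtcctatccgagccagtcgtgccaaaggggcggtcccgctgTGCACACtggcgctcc
Myd88: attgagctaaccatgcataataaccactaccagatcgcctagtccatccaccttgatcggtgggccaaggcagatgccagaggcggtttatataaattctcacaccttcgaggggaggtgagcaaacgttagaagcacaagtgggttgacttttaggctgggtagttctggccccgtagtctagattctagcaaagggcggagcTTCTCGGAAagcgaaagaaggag
The full glucocorticoid response element, AGAACA and TGTTC with 3 bases between them, was searched on both strands, was found in 0.0305% of windows and matched in none of the 11. A match is a description of the letters, and its absence says nothing about the factor.

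Innate sensing genes were the next group. Of 9 Toll-like receptor and adaptor genes tested, 2 fell in acute colitis (Myd88 and Tlr13), 1 in chronic colitis and 1 in food allergy (Myd88), and none rose by edgeR. The shares of all genes called lower were 1.97%, 1.19% and 0.451%. The median log2 change of the list was -0.13, 0.05 and -0.11, against 0.02, 0.01 and 0.01 over all genes tested. Myd88, the adaptor of most Toll-like receptors and of the IL-1 and IL-18 receptors, was at 184, 194, 124 and 157 CPM in controls, 52.2 to 63.3 CPM with acute colitis, 51.4 to 67.7 CPM with chronic colitis and 72.5 to 112 CPM with food allergy. Controls lay above all treated groups. The log2 changes were -1.40 ± 0.15, -1.38 ± 0.15 and -0.88 ± 0.15 (edgeR adjusted p = 7.43e-05, 0.000102 and 0.0163). The first pair held without the WT control library (-1.16 and -1.15, edgeR adjusted p = 0.00686 and 0.00876), and the third did not (edgeR adjusted p = 0.262).

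Tlr13, a sensor of bacterial ribosomal RNA, was at 39.3 to 54.1 CPM in controls and at 14.7 to 28.0 CPM in acute colitis, without overlap (-1.05 ± 0.21, edgeR adjusted p = 0.00862; edgeR adjusted p = 0.0921 without the WT control library). Tmem173 (STING), the adaptor of cytosolic DNA sensing and a gene added after its values were seen, was at 127 to 248 CPM in controls and at 51.4 to 66.2 and 47.7 to 58.3 CPM in acute and chronic colitis. It fell by 1.51 and 1.69 on the log2 scale there, with edgeR adjusted p = 0.000249 and 0.000155, and both calls held without the WT control library.

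Of 15 cytokine and chemokine genes tested, Il18 alone was called in each treatment by edgeR, always lower, where 1.97%, 1.19% and 0.451% of all genes were. Il18, the precursor of a cytokine that induces interferon gamma, was at 87.5, 80.1, 95.2 and 58.7 CPM in controls, 22.0 to 30.8 CPM with acute colitis, 23.1 to 46.8 CPM with chronic colitis and 22.5 to 42.1 CPM with food allergy. No treated group reached a control. The log2 changes were -1.55 ± 0.21, -0.99 ± 0.20 and -1.15 ± 0.22 (edgeR adjusted p = 0.000403, 0.0169 and 0.0344), and the acute one alone held without the WT control library (-1.42, edgeR adjusted p = 0.0241), where the others were -0.87 and -1.04.

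Of 11 class II genes tested, edgeR called 1 in each treatment, against 2.67%, 1.69% and 0.501% of all genes. This was Ctss, the protease that trims the invariant chain, which fell, and the median of the list was -0.16, -0.15 and -0.27. Ctss was at 549, 675, 551 and 669 CPM in controls and at 325 to 424 CPM in the 12 treated groups, again with no overlap. The log2 changes were -0.71 ± 0.12, -0.68 ± 0.12 and -0.59 ± 0.12 (edgeR adjusted p = 0.00197, 0.00462 and 0.0344), and those of acute and chronic colitis held without the WT control library. DESeq2 called 1, 1 and 4 of the 11, against 245, 188 and 115 of all 7983 genes. At an unadjusted edgeR p below 0.05 there were 2, 4 and 7 of the 11, against 1142, 1181 and 1021 of all genes. Cd74 lay between 25720 and 34772 CPM with treated and control groups overlapping. None of 15 class I and cross-presentation genes, 8 co-stimulation and checkpoint genes or 14 interferon-stimulated genes was called in any treatment by edgeR or DESeq2. At an unadjusted edgeR p below 0.05 there were 1, 2 and 3 of these lists in chronic colitis and 0 in the other treatments.

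Some lineage and identity genes were called. In acute colitis these were 4 of the 16 identity genes outside the gate and 2 of 9 lineage genes, against 2.67% of all genes tested. Of the identity genes called by edgeR, Gcsam (-0.76), Sept3 (-0.86) and Btla (-0.73) fell on the log2 scale in acute colitis. Cd36 rose there (1.03) and in chronic colitis (1.01). DESeq2 called 4, 3 and 1 identity genes and 2, 2 and 1 lineage genes in acute colitis, chronic colitis and food allergy. Of all 7983 genes it called 245, 188 and 115. Those at an unadjusted edgeR p below 0.05 numbered 6, 7 and 3 identity genes and 6, 6 and 4 lineage genes, against 1142, 1181 and 1021 of all genes. Btla, an inhibitory receptor, was at 161 to 192 CPM in controls and 92.3 to 113 CPM in acute colitis, and Cd36, a scavenger receptor, at 50.1 to 106 and 146 to 154 CPM, neither with overlap. The calls of Btla and Cd36 were lost without the WT control library, with estimates of -0.77 and 0.75 in acute colitis. The gate genes chose the cells, so a call on them is not read as a result, although they stayed in the fit and Ifi205 is among the genes counted as lower in acute and chronic colitis. Ifi205 was at 641 to 893 CPM in controls and at 400 to 528 CPM in acute and chronic colitis. Clec9a, at 245 to 381 CPM over all 16 groups, and Xcr1, at 74.1 to 224 CPM, overlapped between controls and treatments.

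Of 9 dendritic cell lineage genes, Nfil3, a transcription factor upstream of cDC1 commitment, was lower in all 3 treatments (-1.24, -1.75 and -1.35), with edgeR adjusted p = 0.0122, 0.00229 and 0.0397. It was at 84.0 and 96.1 CPM in WT controls and at 18.6 and 42.7 CPM in APPNL-G-F controls, against 9.20 to 33.9 CPM in treated groups, so that 1 APPNL-G-F control lay within the treated range. Without the WT control library no call of Nfil3 was left (-0.86, -1.36 and -0.99). Itgax (CD11c) was higher in acute colitis (0.96 ± 0.22, edgeR adjusted p = 0.0259), at 57.4 to 79.4 CPM against 22.0 to 41.3 CPM, and Bcl11a was lower in chronic colitis (-0.70 ± 0.17, edgeR adjusted p = 0.0436). Neither held without that library (0.71 and -0.69).

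By rank, the genes of at least 50 CPM that rose most in acute colitis were Cldn1, Hist1h2ae, Tnni2, Cd180 and Ffar4. Cldn1, a tight junction protein, was at 15.3 to 33.3 CPM in controls and 61.3 to 117 CPM in acute colitis, without overlap (1.85 ± 0.26, edgeR adjusted p = 0.000529, and 1.98 with edgeR adjusted p = 0.0163 without the WT control library). Ffar4, a receptor for long-chain fatty acids, was at 26.7 to 64.3 and 87.4 to 128 CPM (1.34 ± 0.23, edgeR adjusted p = 0.00283). Cd180, a Toll-like receptor homologue that pairs with MD-1, was at 18.0 to 65.6 and 93.9 to 114 CPM (1.37 ± 0.24, edgeR adjusted p = 0.00333) and missed the threshold without that library (edgeR adjusted p = 0.0597). Below Socs3, Mt1, Fkbp5 and Ddit4, the largest fall at that level was that of Ifitm2 (-2.09 ± 0.33, edgeR adjusted p = 0.0015).

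In chronic colitis Igkv8-24 led by size (10.58), but a single group held it at 3899 CPM. Hist1h2ae (1.58), Cldn1 (1.42), Cd180 (1.35) and Tnni2 (1.30) followed, of which none was called without the WT control library (estimates from 0.82 to 1.53). After Socs3 the largest falls at that level were those of Ier3 (-2.36), Wfdc17 (-2.35), Ifitm2 (-2.04) and Mt1 (-1.74). Wfdc17, a secreted protease inhibitor of myeloid cells, was at 153 to 332 CPM in controls and at 24.0 to 62.5 CPM in chronic colitis, and its call held without that library (-2.46, edgeR adjusted p = 0.00304). With food allergy no gene of at least 50 CPM rose, and Socs3, Sult1a1 (-1.76), Ddit4, Wfdc17 (-1.28) and Fgfr1 (-1.23) fell most. Of these Socs3 alone was called without the WT control library, where the others were at -1.48, -1.46, -1.39 and -1.20.

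In all 3 comparisons together 29 genes were called, 26 lower and 3 higher (Gm20628, Hist1h2af and Prdx4), but these comparisons share their controls. The 3 that rose were named after their values were seen. In food allergy the calls of Gm20628, Hist1h2af and Prdx4 were lost in 11, 13 and 12 of 16 refits with 1 hashtag group left out. Prdx4 turned direction there without members that had S100a8, Jchain or another gate. Hist1h2af was at 0 in all 4 controls and at 1.87 to 13.7 CPM in the treated groups, and histone genes share near-identical copies, so its level is uncertain. Gm20628 is annotated as antisense. Of the 56 and 157 genes called higher and lower in acute colitis, 54 and 143 had no overlap between the 4 treated and 4 control groups, against 2.39% and 5.26% of all genes tested. For chronic colitis these were 33 of 40 and 85 of 95 (2.48% and 5.94% of all genes), and for food allergy 4 of 4 and 32 of 36 (2.56% and 3.33%). The calls came from these same groups, so less overlap among called genes follows from the calls and is no separate support.

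The named genes were also read in other cells of the same groups, as ratios of the mean of the controls to the mean of the treated groups. For Socs3 the ratio was 6.77 in cDC1, 4.95 in monocytes, 4.44 in B cells, 1.82 in cDC2 and 1.64 in T cells, and controls and treated groups overlapped in all but cDC1. For Myd88 it was 2.38 in cDC1, 1.99 in monocytes and 1.96 in cDC2, with controls above all treated groups in cDC1 and monocytes. For Ddit4 it was 3.36 in cDC1 and 2.24 in cDC2, without overlap in either, and 0.80 in monocytes. For Il18 it was 2.41 in cDC1 and 1.10 in cDC2. These genes were chosen for their calls in the cDC1 of these same groups, which favours a larger ratio and less overlap there. The differences between these ratios were not tested.

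Between genotypes, 5 of 7983 genes were called (0.0626%), all lower in APPNL-G-F. Gapdh, a glycolytic enzyme, was at 563 to 827 CPM in the 8 WT groups (median 731 CPM) and at 282 to 557 CPM in the 8 APPNL-G-F groups (median 313 CPM), without overlap (-0.97 ± 0.11, edgeR adjusted p = 0.00136). Eno1, another glycolytic enzyme, was at 79.9 to 149 CPM (median 128 CPM) and at 33.0 to 74.4 CPM (median 44.1 CPM), also without overlap (-1.19 ± 0.16, edgeR adjusted p = 0.00298). Erh, Gm21887 and Dynlt1f, of lower level and named as the rest of the 5, fell by 1.15, 2.20 and 1.72 on the log2 scale. All 5 were called without the WT control library, and Gapdh and Gm21887 without both WT libraries that stood apart. With the immediate-early level of T cells as a covariate none of the 5 was called (Gapdh -1.08, edgeR adjusted p = 0.0675; Eno1 -1.30, edgeR adjusted p = 0.293), and with counts summed per library 3 were. Gapdh, Eno1 and Dynlt1f have near-identical copies elsewhere in the genome, so reads may be split between them.

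The genotype difference was seen in other cells too. Gapdh was at a mean of 902 CPM in T cells of WT groups and 458 CPM in those of APPNL-G-F groups, and at 640 and 303 CPM in B cells, in both without overlap. In cDC2 it was at 881 and 446 CPM. Eno1 was at 298 and 134 CPM in T cells. No gene of the identity, antigen presentation, Toll-like receptor, cytokine or interferon lists was called between genotypes by edgeR or DESeq2. At an unadjusted edgeR p below 0.05 there were 3, 1, 1, 4 and 0, against 632 of all 7983 genes. Of the 9 dendritic cell lineage genes edgeR called none and DESeq2 called 1, against 19 of all genes by DESeq2. Of these 9, 4 had an unadjusted edgeR p below 0.05 and 2 had an estimate above 0.

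A treatment effect that differed between genotypes was found for 78 genes (0.977%). Of these, 65 had their lowest level in WT control, with Cd177 and Camp at 0 in WT acute colitis as well. The 78 genes included Tmsb10, which binds actin monomers, at 4912 and 4234 CPM in WT control. It was at 9520 and 7391 CPM in APPNL-G-F control and 9266 to 12611 CPM in all treated groups. Neutrophil genes S100a8 and S100a9 were among the 78, as were Cybb, the catalytic subunit of the phagocyte oxidase, and Ube2c, a cell cycle gene.

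Transcripts that mark dividing cells were found among the cDC1 of every group. A transcript of Mki67 or Top2a, which mark cells in cycle, was found in 285 members (19.8%), from 11.1 to 27.1% over the 16 groups with a median of 19.4%. T cells of all groups had 6.91%. After thinning each cell to 1000 UMIs the share ran from 1.69 to 12.5% over groups. Members with such a transcript were deeper (median 14008 against 9307 UMIs), and after the thinning a transcript of Mki67 alone was left in 4.35% of cDC1. That lay above the 1.95% of T cells and below the 4.84% of neutrophils, 5.51% of cDC2, 7.46% of plasmacytoid dendritic cells, 7.90% of B cells and 22.7% of monocytes. In these members Irf8 was at 1104 ± 158 CPM and Cd74 at 22667 ± 4954 CPM, against 1473 ± 168 and 33462 ± 1913 CPM in the others, lower in 16 of 16 groups. Transcripts of other cells differed too, though not in every group. Of the monocyte markers, Ly6c2 was at 425 against 76.0 CPM (higher in 15 of 16 groups), F13a1 at 160 against 8.43 CPM (12 of 16), Chil3 at 245 against 21.7 CPM (9 of 16) and Ccr2 at 212 against 228 CPM (4 of 16). S100a8 was at 3201 against 1066 CPM (10 of 16) and S100a9 at 3524 against 1246 CPM (7 of 16), while Ly6g and Retnlg had lower means in these members. Mcpt8 was at 143 CPM against 0 (4 of 16), and Jchain at 863 against 1242 CPM (4 of 16). Of the erythroid markers, Hbb-bs was at 736 against 0.279 CPM (3 of 16) and Hba-a1 at 477 CPM against 0 (5 of 16). The part of doublets and free RNA in this was not tested, so the share of members that divide is not known.

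Cell cycle genes had mostly positive estimates in treated groups. Of 20 genes, 20 had an estimate above 0 in chronic colitis (median 0.98), 17 in acute colitis (median 0.60) and 19 in food allergy (median 0.78), where the medians over all genes tested were 0.01, 0.02 and 0.01. Birc5, an inhibitor of apoptosis that acts in mitosis, was the 1 gene called by edgeR, where 1.69% of all genes were, at 46.1 to 53.6 CPM in controls and 61.1 to 123 CPM in chronic colitis (1.03 ± 0.25, edgeR adjusted p = 0.0474). Its call was lost without the WT control library (edgeR adjusted p = 0.324). DESeq2 called 0, 5 and 3 of the 20 in acute colitis, chronic colitis and food allergy, against 245, 188 and 115 of all 7983 genes. At an unadjusted edgeR p below 0.05 there were 4, 14 and 10, against 1142, 1181 and 1021 of all genes. The medians were -0.76, 1.28 and 0.48 for the monocyte markers and 0.13, 1.44 and 1.44 for the plasma cell markers. WT chronic colitis hashtag 6 had the highest sum of both monocyte markers (1691 CPM) and cell cycle genes (1826 CPM). The treatment estimates joined both genotypes. For the treatment by genotype interaction, 10 of the 20 cell cycle genes had an unadjusted edgeR p below 0.05, against 656 of all 7983 genes. Ube2c, the 1 called, had means of 50.2 CPM in WT control and 233 CPM in WT chronic colitis. In APPNL-G-F these were 120 and 84.4 CPM. For APPNL-G-F against WT, 19 of the 20 estimates were above 0. The part of other cells in these estimates was not tested.

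Immediate-early genes, which had split the groups, were also compared within the high groups. Their sum in cDC1 was 6836 ± 741 CPM. Fosb was the 1 of 10 called by edgeR, against 0.701% and 0.501% of all genes called higher in acute and chronic colitis. It was higher in acute colitis (1.18 ± 0.23, edgeR adjusted p = 0.00862) and chronic colitis (1.27 ± 0.23, edgeR adjusted p = 0.00866), at 28.0 to 42.9 CPM in controls and 55.0 to 140 CPM in both. It was not called without the WT control library (0.70 and 0.79). DESeq2 called 2 of the 10 in each treatment and 1 between genotypes. At an unadjusted edgeR p below 0.05 there were 2, 5 and 3 of the 10 in acute colitis, chronic colitis and food allergy, against 1142, 1181 and 1021 of all genes. With the immediate-early level of T cells as a covariate, 160, 50 and 28 genes were called in acute colitis, chronic colitis and food allergy.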

How the data were processed

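The deposited files held UMI counts per gene and barcode for 8 droplet 5′ libraries (10x Genomics), with 32285 genes and 4 hashtags (4 to 7) each. The authors made these counts with Cell Ranger on mm10, unfiltered for cells (version 6.1.2 per the submitters' processing notes; the file headers name another version). Counts per library ran from 26988646 to 56307389 gene UMIs, and no column was left unused.

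Barcodes were kept at 500 or more gene UMIs, 200 or more genes, at most 5% mitochondrial UMIs, and a top hashtag count of at least 50 and 3 times the second. Hashtags removed doublets between samples, and doublets within a sample were not called. The gate was given beforehand, and members, markers and the 29 gene lists were chosen with earlier results of these data known. Library and condition were the same, and hashtag groups served as replicates.

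Shares were compared by two-sided exact permutation tests over hashtag groups of at least 200 barcodes (27 of 30). Member counts were summed per hashtag group of at least 10 members (16 groups) and fitted with edgeR 4.0.16 (quasi-likelihood, TMM, filterByExpr, treatment and genotype as terms; the interaction in a second fit) in R 4.3.3. The test was checked on simulated counts. Intervals are exact binomial at 95% and cover counting error only. Python 3.11.15 with scipy 1.17.1 and DESeq2 1.42.0 was used for the rest.

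Named were the gate genes, list genes called in a comparison (otherwise the highest 2 to 4 members), the 5 largest rises and falls among genes of at least 50 CPM, and the 20 genes with the largest ratio over other populations. Tmem173, Gm20628, Hist1h2af, Prdx4, Rps29, Tmsb10, Erh, Gm21887 and Dynlt1f were added after their values were seen. The value of a further listed gene is not reported here. Motifs were searched in RefSeq promoter windows of GRCm38.p6, and gene positions are from GENCODE on mm10. Alternatives were other size factors, DESeq2, no filter on low counts, other gates, thinning to 1000 UMIs, library sums, single genotypes and each hashtag group left out. Left out after the data were seen were the WT control library, alone or with the WT food allergy library, and members with S100a8, Jchain or another gate.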

Additional observations from a re-analysis of the deposited data

Results flagged for a closer look

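For 6 named genes the treatment effect in cDC1 differed between WT and APPNL-G-F (edgeR interaction test, Benjamini-Hochberg adjusted over 7983 genes). The adjusted p from edgeR was 3.174e-07 for Rps29, 0.0029 for Tmsb10, 0.01099 for Cybb and 0.0117 for Ube2c. It was 0.01207 for S100a8 and 0.02655 for S100a9. Rps29 and Tmsb10 were lowest in WT control. In that library the summed ribosomal protein genes with an interaction were low in T cells, B cells and monocytes as well. Cybb was lowest in APP chronic colitis, at a mean of 6.71 CPM. Ube2c was lowest in WT food allergy and stood at 232.5 CPM in WT chronic colitis. S100a8 was below 3 CPM in both WT control and both WT acute colitis groups, and at 1377.8 to 5029.5 CPM in the other WT groups. The part of free neutrophil RNA in this was not tested.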

How the results depend on the processing

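Of 120 refits of the 7 share comparisons, 17 turned the direction (10 of them with 1 hashtag group left out), and no main share comparison had passed. Within low immediate-early groups the difference in percentage points was -0.0923 for WT chronic colitis, -0.385 for WT food allergy, -0.0157 for APP acute colitis, 0.0391 for APP food allergy and -0.346 for APP control against WT control. It was -0.124 for WT food allergy with 4 of 5 markers and -0.0478 for APP chronic colitis after thinning. With 1 hashtag group left out it ranged from -0.280 to 1.11 for WT food allergy, from -0.661 to 1.53 for APP chronic colitis and from -1.63 to 0.301 for APP food allergy. The range was 1.94 to 4.96 for WT acute colitis, 0.141 to 3.26 for WT chronic colitis and 0.366 to 3.37 for APP acute colitis. For APP control against WT control it was 0.182 to 2.03. Counts of called genes moved more, given here as acute colitis, chronic colitis, food allergy, APP against WT. They were 582, 570, 400 and 248 (interaction 368) without a filter on low counts, 34, 27, 7 and 24 with library sums, 72, 13, 1 and 8 without the WT control library, and 55, 13, 0 and 2 without the WT control and WT food allergy libraries. APP libraries alone gave 43, 11 and 1, and WT libraries alone 322 in chronic colitis and 193 in food allergy. DESeq2 gave 115 in food allergy and 19 between genotypes, the immediate-early covariate 50 in chronic colitis and 2 between genotypes (0 of them among the 5), and 4 of 5 markers 21 in food allergy. Without members that had S100a8, Jchain or another gate there were 205 in chronic colitis and 9 between genotypes. With 1 hashtag group left out the counts ranged from 106 to 259, 46 to 183, 4 to 110 and 5 to 10, and from 51 to 78 for the interaction. The lowest in acute and chronic colitis came without the WT control group of hashtag 7, and the highest without the APP control group of hashtag 6. The cause was not tested. For 100 gene results, 2042 of 2776 refits kept direction and call, 733 lost the call and 1 turned. Calls lost were 68 of 100 with library sums, 70 of 91 with APP libraries alone, 64 of 100 without the WT control library and 73 of 100 without both WT libraries. The result that turned was Prdx4 in food allergy, at -0.21 without members that had S100a8, Jchain or another gate. No paired analysis was possible because the labels give no replicate numbers and a hashtag number names an antibody, not an animal. Depth limits genes below the filter, and 2 groups per library limit all shares.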
